A study of Arabidopsis thaliana with 4 samples.

Results

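Lateral root cap cells of the Arabidopsis thaliana root tip were taken as the 476 of 24258 single-cell barcodes that carried 3 marker genes of the outer root cap but few transcripts of the genes that root cap cells switch on as they separate from the root. A barcode was kept when it had at least 2000 unique molecular identifiers (UMIs, one per captured transcript) and no more than 10% of them on mitochondrial or plastid genes. It was a member when at least 2 of sks15, sks16 (both SKU5-similar genes, related to multicopper oxidases) and AT5G60520 (a late embryogenesis abundant protein-like gene) had a UMI, when these 3 genes together reached 300 UMIs per 1000000 UMIs of the barcode (CPM, used below also for summed barcodes), and when BRN1, BRN2, RCPG and CEL5 together stayed under 100 CPM. BRN1 and BRN2 are NAC transcription factors of root cap maturation, RCPG is a root cap polygalacturonase and CEL5 a cellulase. Members numbered 61 of the 6360 kept pWER:GFP barcodes, 196 of the 7552 from pCORTEX:GFP, 109 of the 3516 from PET111 and 110 of the 6830 from pSCR:GFP. These are shares of 0.959% (95% Clopper-Pearson interval 0.734 to 1.23), 2.60% (2.25 to 2.98), 3.1% (2.55 to 3.73) and 1.61% (1.33 to 1.94), intervals that cover counting error only.

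The series tests how well genes measured in single root cells go together with fluorescent reporters. Protoplasts (cells freed of their walls) came from cut root tips of seedlings 4 to 5 days after germination, grown in continuous light, and were sequenced with the 10x Genomics 3′ chemistry. There was 1 library for each line: pWER:GFP (promoter of WER, active in lateral root cap and epidermis), pCORTEX:GFP (a cortex promoter), the enhancer trap PET111 (whose reporter is listed as YFP) and pSCR:GFP (promoter of SCR, of endodermis and quiescent centre). All 4 lines carry a reporter transgene, all are labelled diploid, and line, library and batch number coincide, so that a difference between libraries cannot be told apart from a difference between lines. Wherever 4 values stand together below, they belong to pWER:GFP, then pCORTEX:GFP, then PET111, then pSCR:GFP.

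The root cap covers the meristem and is renewed from stem cells at the root tip. The lateral root cap arises from initials that it shares with the epidermis. Its cells flank the meristem, divide, mature under the NAC factor SMB and end in a programmed cell death, while the innermost part of the cap, the columella, senses gravity with starch grains. Auxin travels through the lateral root cap from the tip towards the elongation zone, with AUX1 as importer and PIN2 as exporter.

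By construction the marker genes were high in members. sks15 stood at 268, 322, 263 and 387 CPM in the summed members of the 4 libraries, against 11.7, 52.3, 25.4 and 29.5 CPM in all other kept barcodes. sks16 had 87, 187, 189.8 and 235 CPM in members and 10.2, 48, 31.4 and 19.7 CPM in the others, and AT5G60520 had 336, 525, 562 and 299 CPM in members and 17, 47.1, 31.5 and 26.3 CPM in the others. The rule rests on few molecules, since a member held 2 to 120 marker UMIs, with medians of 8, 17, 13 and 7.5 in the 4 libraries. The summed separation genes reached 27.2, 45.7, 41.8 and 36.9 CPM in members. In a barcode under 10000 UMIs, 1 UMI of these genes already exceeds 100 CPM. The 26, 44, 21 and 54 members of that depth therefore had none. Whether separating cells of low depth entered the members through missed UMIs was not tested. Barcodes that met the marker part of the rule but had 100 CPM or more of the separation genes were 383, 1333, 583 and 678; they are called separating root cap here and had 645, 956, 970 and 538 CPM of those genes. Members thus made up 13.7%, 12.8%, 15.8% and 14.0% of all barcodes that met the marker part. Columella-type barcodes were those outside the members with a UMI of at least 2 of LZY2, LZY3 and LZY4, genes of gravity signalling, and 300 CPM of them together. In this text LZY2 stands for AT1G17400, LZY3 for AT1G19115 and LZY4 for AT1G72490. No test was made on the 7 genes of the rule. At the edges of the rule, members with 300 to 400 CPM of markers (10, 12, 10 and 10 barcodes) had 65.0, 30.8, 86.4 and 68.9 CPM of SMB, and barcodes just outside with 200 to 300 CPM (6, 13, 8 and 25) had 83.0, 40.0, 39.6 and 35.5 CPM. Members with 50 to 100 CPM of separation genes (16, 85, 37 and 33) had 153, 79.8, 98.4 and 50.2 CPM of SMB, and barcodes just outside with 100 to 150 CPM (28, 84, 28 and 28) had 76.6, 101, 90.9 and 64.8 CPM. SMB was thus present on both sides of each limit.

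Members had median depths of 11985, 15040, 14005 and 10059.5 UMIs, against 10717, 14239.5, 15435 and 9525 UMIs in the other kept barcodes, and 2014 to 211926 UMIs each. The median organelle share of a member barcode was 4.45%, 1.97%, 3.91% and 4.03%, against 2.11%, 1.74%, 2.55% and 2.56% in the others. Each pair of libraries shared 27 to 35 barcode sequences among all deposited barcodes, none of them a member in both. Members of the pSCR:GFP library stood apart: AT1G52070, a jacalin-type lectin gene, had 2079, 702, 1054 and 10799 CPM in members, against 1604, 1080.0, 1095 and 2565 CPM in the others, and its level in pSCR:GFP members was close to that of separating root cap, 11439.5, 10345, 13297 and 12145 CPM. Transcripts of CASP genes, which build the Casparian strip of the endodermis, were high in a few members. In the 4 libraries 0, 12, 6 and 4 members had 300 CPM or more of the CASP genes. The 3 members with most UMIs of a list of 9 endodermis genes held 41.7%, 95.9%, 66.0% and 97.7% of the members' UMIs of that list. In pWER:GFP members the list summed to 12.6 CPM only. AT1G52070 and its tandem neighbour AT1G52060 are close copies, and how reads were split between them is uncertain.

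The root cap part of the label was checked against genes that the rule did not use. SMB and FEZ cannot check the lateral part of it. SMB was called neither against separating root cap nor against columella-type barcodes, and FEZ was higher in columella-type barcodes, as given below. SMB, the NAC factor that drives root cap maturation, had 112, 91, 103 and 53.3 CPM in members and 6.28, 9.92, 9.09 and 9.76 CPM in the others. Members and others did not overlap, and SMB was 8.97-fold higher in members (3.17 ± 0.25 on the log2 scale ± SE, adjusted p = 0.000669). A UMI of SMB was found in 52.5%, 78.6%, 68.8% and 30.9% of members, against 2.84%, 3.83%, 0.781% and 1.87% of hair-type barcodes (at least 2 of COBL9, EXPA7 and EXPA18 with a UMI and 300 CPM of them together), which should lack the gene and were deeper or similar at medians of 25620.5, 46759, 41015 and 12280.5 UMIs. After each barcode was thinned to 2000 UMIs these shares were 16.4%, 19.4%, 15.6% and 8.18% in members and 0%, 0.639%, 0% and 0% in hair-type barcodes, where the counts of 0 allow shares of up to 2.07%, 2.84% and 1.37% by the exact interval. FEZ, the NAC factor that drives root cap stem cells to divide, had 47.2, 14.9, 23.3 and 18 CPM in members and 2.21, 1.97, 1.58 and 2.13 CPM in the others, 10.6-fold higher in members (3.41 ± 0.27, adjusted p = 0.000687). The levels of both cap regulators and of WER, AUX1 and PIN2 in the 4 classes of barcodes are drawn in the plot of regulator levels.

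**Figure D1:**
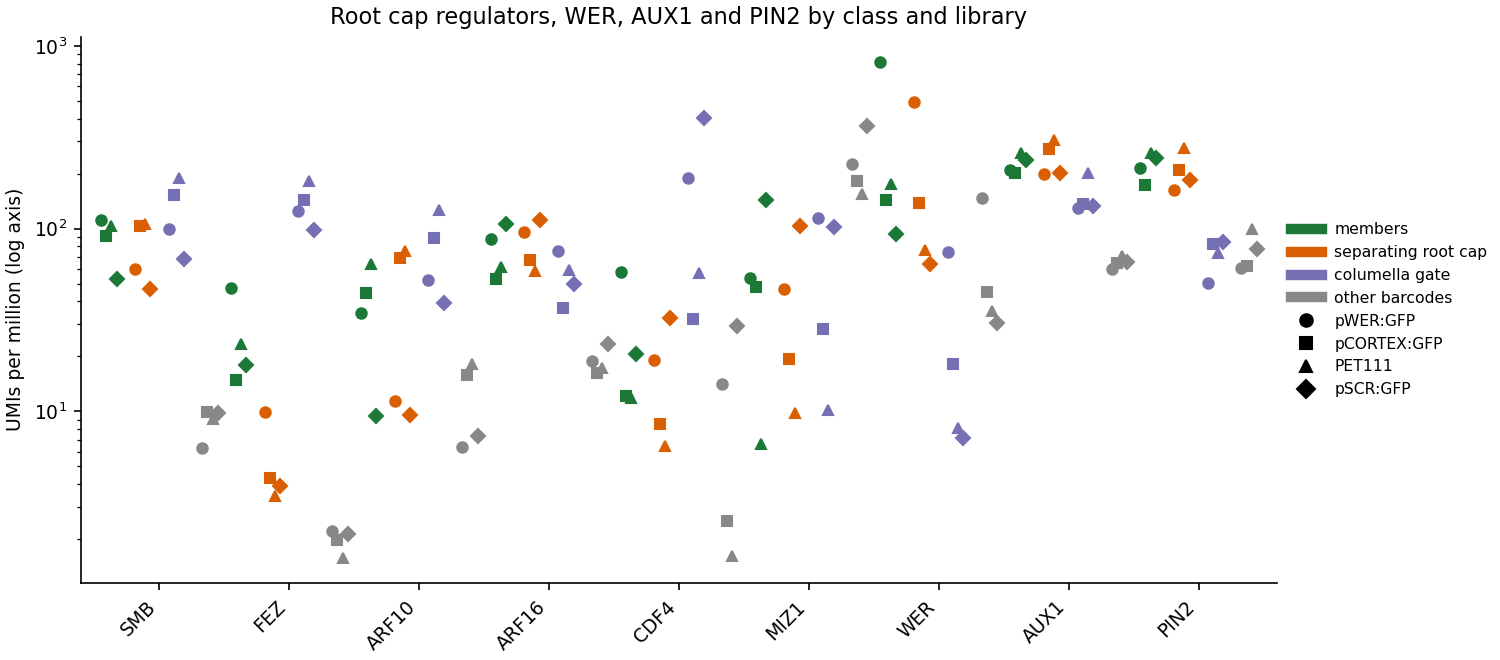
Levels (CPM, log axis) of root cap regulators and auxin carriers in members, separating root cap, columella-type barcodes and all other kept barcodes, with 1 symbol per library. SMB in members lies between 53.3 and 112 CPM, above the 6.28 to 9.92 CPM of the other barcodes, and FEZ is highest in columella-type barcodes.

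Over all genes, members were set against the other kept barcodes of the same library with UMIs summed per library and class, edgeR's quasi-likelihood test with the library as a block, and Benjamini-Hochberg adjustment over 20068 genes. A gene was called at an adjusted p under 0.05 and a change of at least 1 on the log2 scale. In this comparison 7.77% of genes (1560) were called higher in members and 11.6% (2330) lower, and the median change of all genes was -0.06. Scaling by library totals in place of TMM factors moved that median by 0.17 and gave 2088 higher and 1929 lower calls. Without the pSCR:GFP library, 1534 genes were higher and 2037 lower. The p-values measure the spread of the member-to-other ratio between 4 libraries of different lines, and the tested genes were read in the same barcodes as the rule's genes.

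Of the 6 root cap regulators, 5 were called higher in members and 1 lower, with a median change of 1.67. ARF16 and ARF10, auxin response factors that restrain columella stem cells, were higher: ARF16 had 88, 53.3, 61.7 and 107 CPM in members and 18.9, 16.2, 17.2 and 23.3 CPM in the others (1.82 ± 0.15), and ARF10 had 34.6, 44.5, 64.3 and 9.45 CPM in members and 6.39, 15.9, 18.2 and 7.34 CPM in the others (1.44 ± 0.26). Members exceeded the others in every library for ARF16 and for ARF10. CDF4, a Dof-type transcription factor of the distal root tip, was called higher by 1.52 ± 0.49, though in pSCR:GFP it had less in members than in the others (57.6, 12.1, 11.9 and 20.6 CPM in members, 14.2, 2.51, 1.62 and 29.2 CPM in the others). Its call was lost on leaving out any of the pWER:GFP, pCORTEX:GFP or PET111 libraries. MIZ1, needed for the bending of roots towards water, was lower in members, at 53.4, 47.9, 6.61 and 144 CPM in members and 227, 182, 156 and 366 CPM in the others (-2.49 ± 0.46, adjusted p = 0.00806).

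Of 16 auxin transport genes, 4 were called higher in members and 1 lower. AUX1, the importer, had 211, 202, 258 and 236 CPM in members and 60.4, 65.2, 70.8 and 65.3 CPM in the others, 3.07-fold higher (1.62 ± 0.14, adjusted p = 0.000807). PIN2, the exporter that sends auxin away from the tip, had 214, 174, 261 and 244 CPM in members and 60.6, 62.7, 100.0 and 77.6 CPM in the others, 2.66-fold higher (1.41 ± 0.14, adjusted p = 0.00110). Both carriers stood in a narrow band over the 4 member sums and lay well above the others in each library, with no overlap. PID, a kinase that acts on PIN proteins, was also higher (45.1, 14.7, 26.9 and 23.2 CPM in members, 15.7, 2.78, 4.07 and 14.4 CPM in the others), as was PIN4, an exporter of the root tip (39.8, 37.7, 60.3 and 18 CPM in members, 9.01, 20.5, 17.8 and 10.6 CPM in the others). In a setting without mixed barcodes, every barcode that met the limits on LZY or hair genes was left out of members and others. All columella-type and hair-type barcodes thus left the others. In that setting 3 of the list were called higher and 3 lower, and the PIN4 difference was 0.32 and not called. LAX3, an importer of outer tissues over emerging lateral roots, was lower in members (2.1, 5.92, 0 and 12.9 CPM in members, 51, 41.3, 21.1 and 75 CPM in the others). PIN3 and PIN7, exporters of the columella, did not pass, at 7.34, 6.63, 7.93 and 5.15 CPM of PIN3 in members and 15.5, 5.52, 5.25 and 28.9 CPM in the others.

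Among 18 genes of auxin supply and turnover, 5 were called higher in members and 1 lower. The higher ones were ABCG37, an exporter of auxin precursors at the root surface, and YUC3, YUC7, YUC8 and YUC9, which make auxin, and the lower one was MAKR4, with no UMI in members. ABCG37 had 335, 213, 278 and 629 CPM in members and 156, 101, 118 and 213 CPM in the others. Its call held in 14 of 19 alternative settings, with log2 changes of 0.26 to 1.35. YUC7 had a test value in 11 of these settings only, and was called in all 11 (3.03 to 4.55). YUC9 had 169, 8.77, 8.37 and 81.6 CPM in members and 30.8, 3.13, 1.63 and 24.2 CPM in the others (1.83 ± 0.19), the pWER:GFP and pSCR:GFP libraries being high in both classes. YUC8 had 109, 10.7, 22.5 and 81.6 CPM in members and 12.9, 3.53, 2.9 and 24.1 CPM in the others, and YUC3 had 96.4, 41.7, 75.3 and 10.3 CPM in members and 7.65, 10.8, 10.2 and 13.7 CPM in the others. YUC3 and YUC8 were not called once mixed barcodes were left out (0.83 and 1.00), and YUC3 in pSCR:GFP was lower in members. The peroxisomal genes that turn indole-3-butyric acid into auxin were not called: IBR1 had 34.6, 40.3, 44.9 and 36.1 CPM in members and 45.4, 44.7, 39.6 and 44.3 CPM in the others.

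WER, a MYB factor known in lateral root cap and in the epidermal cells that form no hairs, had 821, 144, 174 and 93.6 CPM in members and 146, 45.1, 35.3 and 30.4 CPM in the others (1.85 ± 0.18, 3.61-fold, adjusted p = 0.000952). Of the 12 genes of epidermal patterning it was the one called higher, and 9 were called lower. It was highest in the pWER:GFP library in every class, and what the transgene adds to WER counts was not tested. A WER UMI was found in 77%, 70.9%, 64.2% and 30.0% of members, against 34.2%, 30.0%, 25.7% and 16.1% of the others and 9.09%, 12.1%, 4.69% and 2.61% of hair-type barcodes; thinned to 2000 UMIs, the shares were 54.1%, 20.9%, 25.7% and 5.45% in members and 14.4%, 7.08%, 4.43% and 3.68% in the others. Its call was lost when the library was not kept as a block (adjusted p = 0.118). Relatives and targets of WER in the epidermis were among the 9: MYB23, a near relative of WER in non-hair cells, had 7.34, 7.58, 0 and 6.01 CPM in members and 33.9, 17.9, 17.6 and 32.9 CPM in the others, and GL2, the target that holds back hair growth, had 1.05, 4.98, 3.08 and 2.58 CPM in members and 3.82, 6.59, 9.77 and 3.61 CPM in the others. The GL2 call held in 10 of 19 alternative settings, with log2 changes of -2.91 to -0.83. CPC, the small MYB protein that moves into hair cells, had 51.3, 36.5, 9.69 and 90.2 CPM in members and 153, 57.3, 62.2 and 157 CPM in the others. TTG1, the WD40 partner shared by both cell fates, had 28.3, 23.5, 24.2 and 24.1 CPM in members and 16.6, 16.9, 15.9 and 17.7 CPM in the others and was not called. Leaving out 1 library at a time gave 4 to 6 lower calls in this list.

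Genes of dividing cells were higher in members. Of 16 such genes 13 were called higher and none lower, with a median change of 1.88. KN, the syntaxin that fuses the cell plate, had 121, 104, 142 and 59.3 CPM in members and 19.8, 17.4, 21.1 and 12.7 CPM in the others, 5.18-fold higher (2.37 ± 0.15, adjusted p = 0.000583). CYCB1;2, a mitotic cyclin, had 58.7, 31.7, 57.7 and 25.8 CPM in members and 7.27, 5.43, 9.78 and 4.77 CPM in the others (2.47 ± 0.15). AUR2, an Aurora kinase of the spindle and cell plate, had 78.6, 169, 180.2 and 56.7 CPM in members and 17.6, 20.5, 26.3 and 14 CPM in the others (2.35 ± 0.22), and HIK, a kinesin of the cytokinetic machinery, had 45.1, 47.9, 61.7 and 34.4 CPM in members and 8.42, 6.24, 12.1 and 6.03 CPM in the others (2.39 ± 0.18). For each of these 4 genes every member sum lay above every sum of the others, without a share over all genes to set beside it. PCNA1 and MCM5, which act in DNA replication, and CDKB1;1 were the genes not called: PCNA1 had 35.6, 51.9, 63 and 29.2 CPM in members and 38.7, 47.9, 53.4 and 21.1 CPM in the others (0.00 ± 0.17). Summed over the list, members had 577, 744, 947 and 357 CPM and the others 177, 171, 229 and 119 CPM. In single barcodes, 21.3%, 26.5%, 28.4% and 10.9% of members had 300 CPM or more of the list, against 11.8%, 12.1%, 9.89% and 6.85% of the others and 2.84%, 2.88%, 0% and 0.746% of hair-type barcodes. A UMI of the list remained after thinning in 21.3%, 33.2%, 30.3% and 17.3% of members and in 15.6%, 15.5%, 13.4% and 10.3% of the others. Leaving out 1 library at a time, 11 to 13 genes were called.

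The PLETHORA genes, which pattern the meristem in a gradient from the stem cell niche, were also higher. PLT1 had 54.5, 34.6, 47.1 and 14.6 CPM in members and 4.21, 5.0, 3.71 and 3.88 CPM in the others (2.91 ± 0.29), PLT2 had 27.2, 15.4, 22 and 6.87 CPM in members and 2.4, 2.89, 2.7 and 2.69 CPM in the others (2.50 ± 0.31), and PLT3 had 97.5, 74.4, 109.7 and 81.6 CPM in members and 12.4, 11.8, 18.3 and 22.4 CPM in the others (2.35 ± 0.18). Members lay above the others in each library for all 3. BBM and WOX5, the other 2 of the 5 niche genes, were close to 0 in members: WOX5, which marks the quiescent centre, had 0, 0, 0 and 2.58 CPM in members and 0.703, 0.262, 0.154 and 1.7 CPM in the others. Whichever library was left out, 3 niche genes were called.

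Of 6 genes of columella and gravity 3 were called higher and none lower. With mixed barcodes left out, 5 were tested, LZY3 alone was called higher and PIN3 lower (-2.06 ± 0.40), and the median change of the list was 0.06 against 1.71 with them. LZY3 (here AT1G19115), a LAZY-type gene of gravity signalling, had 74.4, 89.3, 79.3 and 18 CPM in members and 2.26, 7.34, 4.37 and 2.08 CPM in the others, 14.4-fold higher (3.84 ± 0.28, adjusted p = 0.000669). LZY2 and LZY4 of the same family were called too. LZY4 had 14.7, 61.6, 78.8 and 13.7 CPM in members and 3.97, 4.75, 3.6 and 5.1 CPM in the others. The LZY4 difference was 0.25 and not called without mixed barcodes. That setting removes by construction the barcodes with most LZY2, LZY3 and LZY4, members included, so it cannot test these genes. LZY transcripts sat in a subset, since 2, 16, 10 and 1 members met the same LZY limits as columella-type barcodes. Of 6 starch genes 3 were called higher, among them ADG1, a subunit of ADP-glucose pyrophosphorylase, with 58.7, 42.6, 43.6 and 48.1 CPM in members and 14.1, 13.6, 16.7 and 14.5 CPM in the others (1.53 ± 0.15). The counts of starch genes called fell to 1 without pWER:GFP, PET111 or pSCR:GFP.

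Hair and xylem genes were lower in members, while most genes of endodermis, cortex and phloem were not called. All 7 hair genes were called lower, COBL9 (of hair tip growth) with 2.1, 1.66, 0.881 and 4.3 CPM in members and 10.8, 47.4, 40.0 and 11.4 CPM in the others, and RHD6, a bHLH factor of hair initiation counted with epidermal patterning, with 4.19, 0.711, 1.76 and 13.7 CPM in members and 25.7, 21.1, 20.9 and 33.6 CPM in the others. The others include hair-type barcodes, and with these and all further mixed barcodes left out 3 of the 7 hair genes were called lower. All 6 xylem genes were called lower, among them XCP2, a xylem protease, with 1.05, 18, 0.44 and 0 CPM in members and 33.5, 28.2, 28.2 and 44.1 CPM in the others; in pCORTEX:GFP members xylem genes were not absent, and 2 to 5 genes of the list were called on leaving out 1 library and 2 among barcodes of 10000 UMIs. Of 9 endodermis genes SCR and MYB36 were called lower, SCR with 0, 1.42, 0 and 1.72 CPM in members and 3.14, 7.47, 9.75 and 4.2 CPM in the others. The CASP genes of that list were not called: CASP1 had 1.05, 975, 46.3 and 424 CPM in members and 277, 1054, 862 and 369 CPM in the others, and the whole list summed to 12.6, 2168, 92.1 and 1082 CPM in members and 681, 2393, 2125 and 1014 CPM in the others. Whether these CASP-rich members are mixed droplets was not tested. With all barcodes of 300 CPM or more of CASP genes left out, from members and others alike, 2 endodermis genes were called lower. The median change of the list was then 0.09 against -2.15 before. This setting selects on genes of the list in both classes, so it cannot show what the CASP-rich members alone add. None of the 3 cortex genes was called by edgeR, at adjusted p of 0.0513, 0.0563 and 0.0711. All 3 were called lower with the CASP-rich barcodes of both classes left out, and 2 without pSCR:GFP. Of 4 tested phloem genes 1 was called lower, SUC2, a sucrose carrier with no UMI in members. All 5 tested flavonol genes were lower than in the others with a median change of -3.16, and this count stayed at 5 without any 1 library. Among them was CHS, the entry enzyme of the pathway (-3.35 ± 0.42). CHS had 17.8, 29.4, 5.29 and 17.2 CPM in members and 91.3, 335, 147 and 70.6 CPM in the others. Against separating root cap 0 of 4 tested flavonol genes were called (median 0.05), and against columella-type barcodes 0 of 3 (median -0.40).

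**Figure D2:**
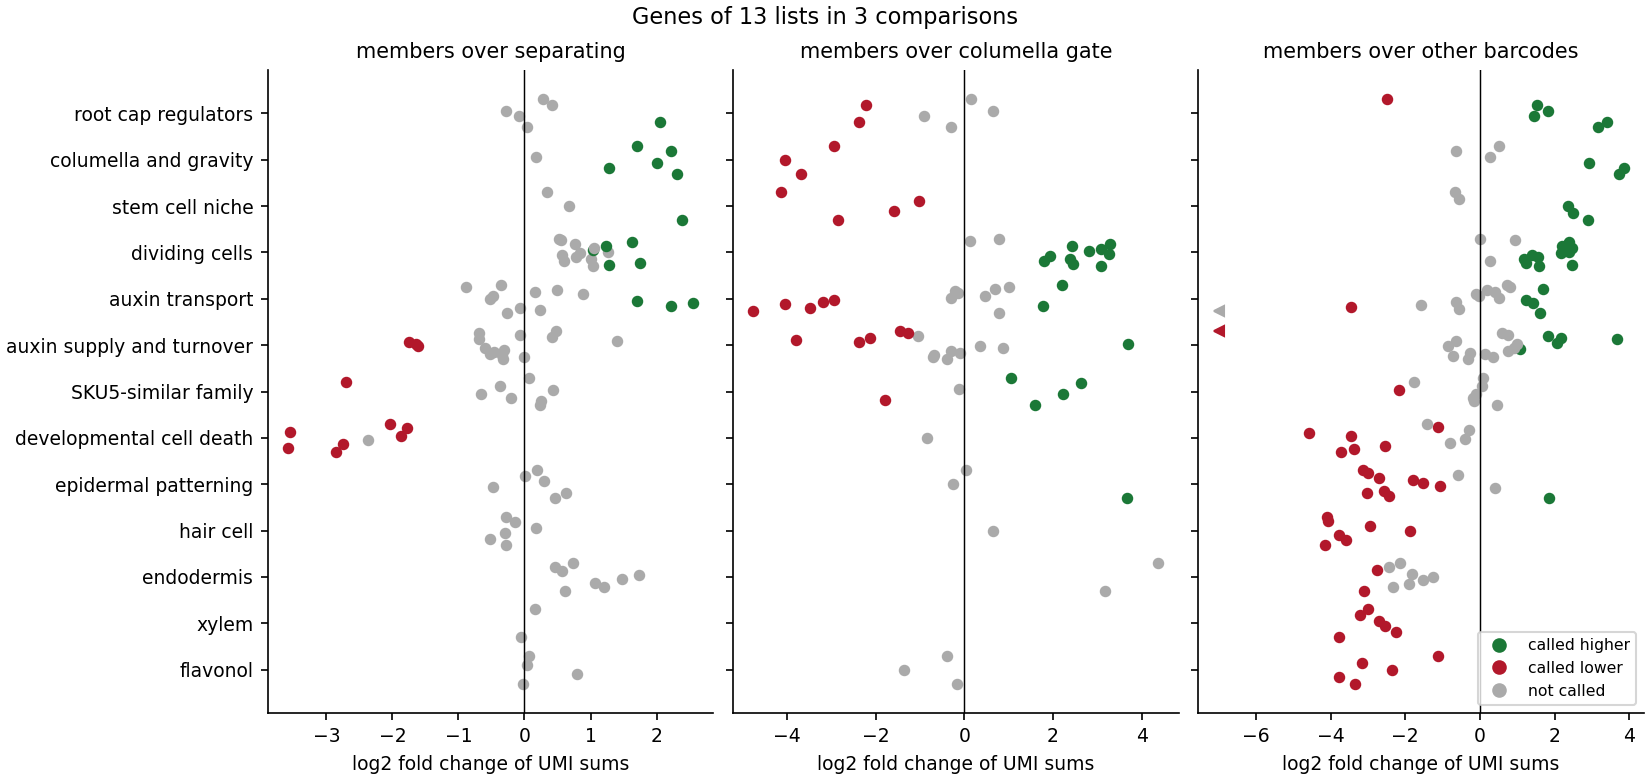
Log2 change of each tested gene (points) in members against separating root cap, columella-type barcodes and all other kept barcodes, by gene list; green points were called higher, red points lower and grey points were not called. Arrowheads at the left edge stand for genes beyond the axis, which had no UMI in members. Most genes of dividing cells lie right of 0 in all 3 panels.

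Of the genes of the wall, 5 of 16 tested genes of loosening and expansion were called higher and 3 lower. EXPA14, an expansin, had 163, 273, 349 and 67 CPM in members and 47.3, 79.5, 79.4 and 23.3 CPM in the others (1.64 ± 0.16), and XTH5, which cuts and rejoins xyloglucan, had 189.7, 449.9, 419 and 168 CPM in members and 108, 121, 95.7 and 56 CPM in the others. EXPA11 had 10.5, 10.2, 0.881 and 30.1 CPM in members and 62.2, 85.8, 75.5 and 61.4 CPM in the others, and was lower. Of the 7 genes of primary wall cellulose CESA2 alone was called, lower in members. Of 8 tested SKU5-similar relatives of the 2 marker genes, none was called higher and SKS5 was lower. With 8 genes, these shares of 0% and 12.5% cannot be told from the 7.77% higher and 11.6% lower over all genes. SKS6 had 165, 193, 182 and 192 CPM in members and 139, 172, 190.5 and 127 CPM in the others. Of 8 tested genes of cutin and cuticle, of 16 listed, 1 was called, higher in members: GPAT8, an acyltransferase of cutin synthesis, with 3.14, 3.08, 5.73 and 16.3 CPM in members and 1.16, 1.9, 1.79 and 3.09 CPM in the others. Its call held in 13 of 19 alternatives and was lost on leaving out the pWER:GFP, PET111 or pSCR:GFP library. Of 14 tested uptake genes AKT1, a potassium channel, was higher, with 25.2, 34.8, 44 and 42.1 CPM in members and 10.4, 17.6, 21 and 15.5 CPM in the others, and PHT1;1, a phosphate importer, was lower. The AKT1 call held in 9 of 19 alternatives, with log2 changes of 0.33 to 1.18. None of the 7 heat shock genes was called, and ICS1, of salicylic acid synthesis, was the one immune gene called of 6 tested, lower in members. A single call made up 14.3% of the cellulose, 12.5% of the cutin, 7.14% of the uptake and 16.7% of the immune genes tested. Over all genes 7.77% were called higher and 11.6% lower, so these counts show no trait of the lists.

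Among genes chosen by size of change alone, the highest was AT2G43480, a peroxidase gene, with 159, 92.6, 128 and 79 CPM in members and 6.29, 7.68, 5.0 and 5.78 CPM in the others, 16-fold higher (4.00 ± 0.23, adjusted p = 0.000583). CSLD5, a cellulose synthase-like enzyme of the cell plate, had 99.6, 73.4, 115 and 56.7 CPM in members and 6.51, 5.41, 13.1 and 5.84 CPM in the others, 10.2-fold higher (3.35 ± 0.18). All 4 member sums of both genes exceeded all 4 sums of the others several times over. LZY3 ranked between them and SMB after them. The abundant GDSL-type lipase gene AT1G54010 had 1309.9, 2417, 2614 and 2094 CPM in members and 185, 392, 278 and 242 CPM in the others (2.78 ± 0.19). Further genes of the highest 15 were AT5G01260 (a carbohydrate-binding fold), AT5G56120, AT1G78520 (an X8-domain protein), AT1G10530, the GH3-family genes AT1G23160 and AT5G51470, AT3G59765, FLA10 (a fasciclin-like arabinogalactan protein), TBL11 and OEP16-1 (of the outer plastid envelope), with log2 changes of 2.78 to 3.1. Of these, AT5G51470 ranged from 5.15 CPM in pSCR:GFP members to 117 CPM in pWER:GFP members. The 8 lowest were MOP10, AGP3, HRGP1, XTH14, AT5G63270, LCR68, XTH16 and AT3G61560, with log2 changes of -4.86 to -4.03. MOP10 had 2.1, 2.61, 3.08 and 9.45 CPM in members and 61, 147, 79.2 and 97.8 CPM in the others, and with hair-type and other mixed barcodes left out its difference was -0.89. The call was likewise lost for AGP3 (-0.33), HRGP1 (-0.92) and XTH14 (-0.02).

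Members were next set against separating root cap, the barcodes with the same marker genes but 100 CPM or more of the separation genes, which were 383, 1333, 583 and 678 with median depths of 15927, 11565, 10246 and 14258 UMIs. The member sums are those of the comparison above, so that the comparisons share them, and the 4 separation genes differ by construction. Of 15022 genes tested, 3.88% (583) were called higher in members and 4.09% (615) lower (7.97% in all), with a median of -0.01. Scaling by library totals moved the median by 0.16 and gave 903 higher and 419 lower calls. The number of calls fell most without the pWER:GFP library, where edgeR called 0 genes in either direction, with 3470 genes at an unadjusted p under 0.05. It called 227 higher and 182 lower without pCORTEX:GFP, and 281 higher and 272 lower without PET111. Without pSCR:GFP, whose members had AT1G52070 near the level of separating root cap, it called 579 higher and 898 lower.

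Genes of developmental cell death were lower in members than in separating root cap. Of 8 genes tested of the 12 listed, 7 were called lower and none higher, with a median change of -2.56. MC9, a metacaspase, had 12.6, 3.32, 1.32 and 41.2 CPM in members, 66.5, 35.1, 32.7 and 94.8 CPM in separating root cap and 131, 11.6, 8.82 and 162 CPM in the others (-2.75 ± 0.45 against separating root cap, adjusted p = 0.0179). RNS3, a ribonuclease that marks dying cap cells, had 2.1, 4.5, 0.44 and 55.8 CPM in members and 52.3, 111, 72.2 and 72.2 CPM in separating root cap (-3.58 ± 0.89). For both genes the members of 3 libraries were far below separating cells, while pSCR:GFP members had more than the other 3 member sums. NAC046 and NAC087, the factors that act on the timing of root cap death, were lower: NAC046 had 7.34, 2.13, 1.76 and 12.9 CPM in members and 24.4, 8.31, 8.9 and 23.3 CPM in separating root cap (-1.78 ± 0.28), and NAC087 had 8.38, 3.55, 3.52 and 13.7 CPM in members and 22.6, 19.1, 26 and 23.8 CPM in separating root cap (-2.04 ± 0.34). PASPA3, an aspartic protease, was not called, at 6.29, 1.42, 0.881 and 59.3 CPM in members and 29.1, 30.4, 38.9 and 38.5 CPM in separating root cap. BFN1, a nuclease of dying cells, stayed low in both, at 1.05, 0.948, 0 and 0.859 CPM in members and 5.33, 3.43, 2.44 and 12.1 CPM in separating root cap (-2.85 ± 0.51). The list summed to 74.4, 48.6, 24.2 and 399 CPM in members, 312, 373, 314 and 465 CPM in separating root cap and 416, 127, 97.2 and 575 CPM in the others. Against all others, 6 of 10 tested genes were lower with a median of -1.98, and 2 among barcodes of 10000 UMIs; xylem cells, which use many of the same genes when they die, are among the others and their part in that result was not tested. Against separating root cap, 8 genes were called lower without pSCR:GFP, 4 without PET111, 1 without pCORTEX:GFP and 0 without pWER:GFP.

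**Figure D3:**
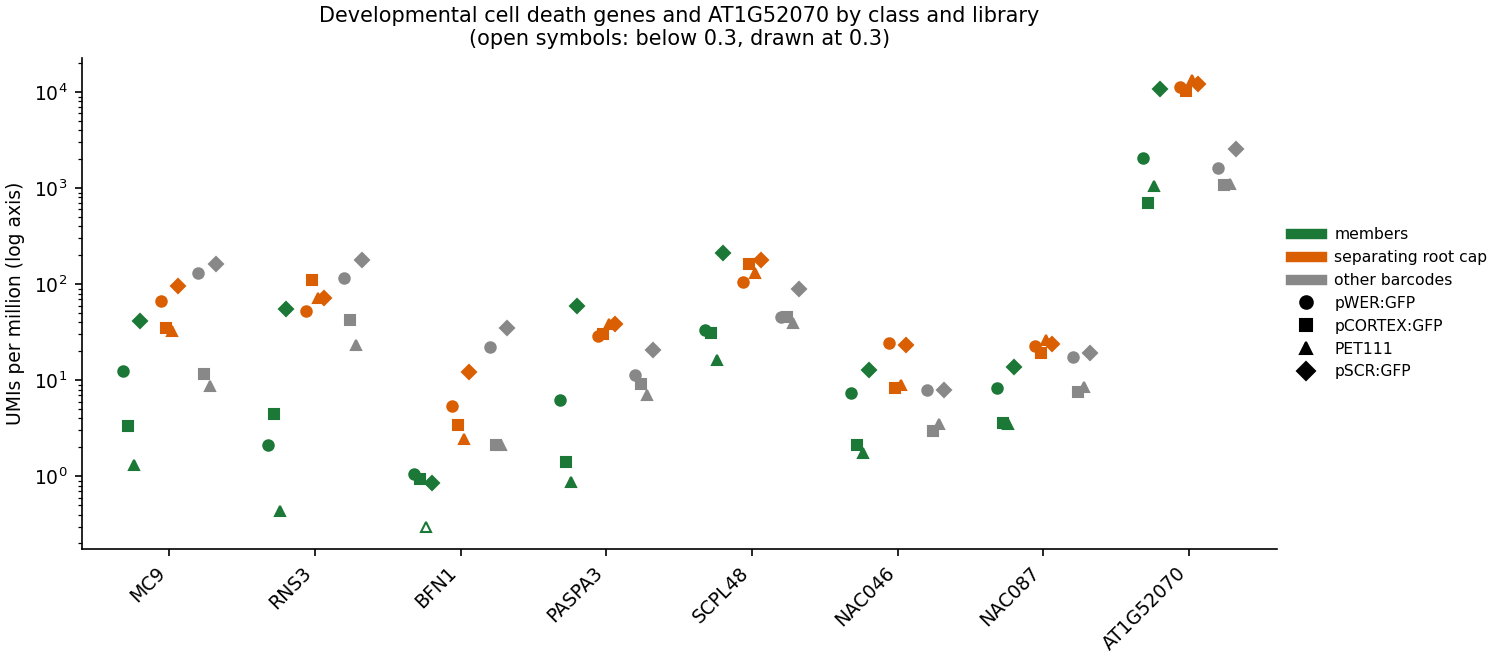
Levels (CPM, log axis) of cell death genes, of their NAC regulators and of AT1G52070 in members, separating root cap and all other kept barcodes, 1 symbol per library; open symbols lie below 0.3 CPM and are drawn there. RNS3 in members is 2.1, 4.5, 0.44 and 55.8 CPM, and the pSCR:GFP symbol lies nearest to separating root cap.

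In the other direction, FEZ was 4.16-fold higher in members than in separating root cap, where it had 9.91, 4.31, 3.44 and 3.88 CPM (2.05 ± 0.21, adjusted p = 0.0136), the one root cap regulator of 6 to be called. SMB did not pass, with 60.1, 103, 106 and 46.7 CPM in separating root cap and a difference of 0.04 ± 0.19. Of 16 genes of dividing cells 5 were called higher in members and none lower, among them CDC20.1, an activator of mitotic exit, with 25.2, 73, 111 and 41.2 CPM in members and 7.32, 30.2, 27.1 and 9.13 CPM in separating root cap (1.63 ± 0.19). The calls for dividing cells were 11 without pSCR:GFP, 3 without PET111, 1 without pCORTEX:GFP and 0 without pWER:GFP. PLT1 was higher, with 5.94, 9.77, 7.75 and 1.94 CPM in separating root cap (2.39 ± 0.24). Of 6 genes of columella and gravity 5 were higher, including PIN3 (7.34, 6.63, 7.93 and 5.15 CPM in members, 1.68, 1.35, 0.717 and 1.55 CPM in separating root cap) and PIN7 (14.7, 10.7, 12.8 and 6.01 CPM in members, 2.74, 3.32, 4.73 and 1.17 CPM in separating root cap), but none of the 3 then tested was called once mixed barcodes were left out. That setting leaves out barcodes of both classes by their LZY level, so for the LZY genes it is no separate test. PIN4 stood with PIN3 and PIN7 among the auxin transport genes called higher, at 4.27, 9.97, 10.6 and 1.07 CPM in separating root cap (2.55 ± 0.31). AUX1 and PIN2 did not pass, with 199, 272, 306 and 202 CPM of AUX1 and 163, 209, 276 and 185 CPM of PIN2 in separating root cap.

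Of 16 tested genes of auxin supply, 3 were lower in members than in separating root cap and none higher: TAA1 and TAR2, aminotransferases of auxin synthesis, and TOB1, a carrier of indole-3-butyric acid. TOB1 had 68.1, 16.3, 16.3 and 102 CPM in members and 166, 71.7, 57.8 and 152 CPM in separating root cap (-1.61 ± 0.26), and TAR2 had 10.5, 10.2, 2.64 and 10.3 CPM in members and 19.4, 30.5, 23.5 and 19.8 CPM in separating root cap (-1.75 ± 0.34). GPAT8 of cutin synthesis was lower too, with 14, 18.8, 19.1 and 30.2 CPM in separating root cap (-1.93 ± 0.30). FMO1, PBS3 and ICS1 of the salicylic acid and pipecolic acid pathways were lower, PBS3 with 0, 0.711, 15.9 and 0 CPM in members and 11.1, 33.4, 53.4 and 1.85 CPM in separating root cap. PBS3 was above 1 CPM in PET111 members only. By size of change, the highest genes were RGF2 and RGF3, which encode root growth factor peptides, ADF9, GH9B13, OEP16-1, FLA10, AT1G78520 and FIB2, which encodes the nucleolar protein fibrillarin. RGF3 had 297, 236, 491 and 141 CPM in members and 55.3, 71.9, 44.8 and 3.98 CPM in separating root cap (2.91 ± 0.52), and FIB2 had 97.5, 53.5, 58.6 and 56.7 CPM in members and 15.9, 28.7, 16.9 and 10.8 CPM in separating root cap (1.72 ± 0.27). The lowest were AT1G50060, PE11 (a pectinesterase), RNS3, BGLU34, CPT (a cis-prenyltransferase), AT5G55110, YLS9 and CXE18. CPT had 15.7, 9.24, 10.6 and 47.2 CPM in members and 54.3, 369, 336 and 61.1 CPM in separating root cap (-3.40 ± 0.91), and AT5G55110, a STIG1-family gene, had 122, 39.8, 36.1 and 370.3 CPM in members and 665, 891, 663 and 662 CPM in separating root cap. AT1G52070 was lower (-2.81 ± 0.64), with pSCR:GFP the exception.

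The columella-type barcodes numbered 50, 112, 36 and 38, with median depths of 9464, 10211.5, 11485 and 14060 UMIs. Against these, 7.42% of 10694 tested genes (794) were called higher in members and 9.01% (964) lower, with a median of -0.01. Library totals moved the median by -0.17 and gave 613 higher and 1257 lower calls. WER had 821, 144, 174 and 93.6 CPM in members and 74.8, 18.2, 8.14 and 7.16 CPM in columella-type barcodes (3.67 ± 0.27, 12.8-fold, adjusted p = 0.000571), and was called without any 1 library. PIN2 was higher in members, with 50.5, 82.9, 73.3 and 84.7 CPM in columella-type barcodes (1.78 ± 0.22), and so were WAG2, a kinase related to PID, and TOB1, with 7.78, 2.21, 0 and 4.77 CPM in columella-type barcodes (3.70 ± 0.36). SMB did not pass (100.1, 152, 189 and 68 CPM in columella-type barcodes, -0.29 ± 0.22). FEZ was lower in members, with 125, 144, 181 and 97.8 CPM in columella-type barcodes (-2.37 ± 0.31), and CDF4 was lower too (189.5, 32.1, 57 and 402 CPM in columella-type barcodes, -2.21 ± 0.47). Members and columella-type barcodes did not overlap for WER, FEZ or PIN2.

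Genes of dividing cells were higher in members than in columella-type barcodes, 10 of 12 tested with a median of 2.44 and none lower; KN had 20.4, 28.7, 2.04 and 0 CPM in columella-type barcodes (3.26 ± 0.60). All 4 tested niche genes were lower in members, PLT1 with 265, 318, 409 and 167 CPM in columella-type barcodes (-2.84 ± 0.24) and PLT2 with 60.3, 65.2, 63.1 and 37 CPM (-1.58 ± 0.24). Of the columella genes outside the rule, ARL2, PIN3 and PIN7 were all lower: ARL2, a J-domain protein of gravitropism, had 6.29, 2.37, 2.2 and 1.72 CPM in members and 46.7, 42.6, 34.6 and 45.3 CPM in columella-type barcodes (-3.68 ± 0.31). Of 5 starch genes 3 were lower, GBSS1, the granule-bound starch synthase, with 0, 0.948, 7.05 and 2.58 CPM in members and 87.5, 43.7, 50.9 and 58.4 CPM in columella-type barcodes (-4.24 ± 0.55). Of 6 heat shock genes 4 were lower, HSP101 with 8.38, 72.3, 35.2 and 4.3 CPM in members and 53.5, 318, 185 and 2.39 CPM in columella-type barcodes. Of the auxin carriers, LAX2 and PIN4 were among those lower in members, LAX2 with 1.05, 4.03, 8.37 and 0.859 CPM in members and 149.7, 122, 108 and 111 CPM in columella-type barcodes (-4.75 ± 0.46).

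SKU5-similar genes outside the rule were higher in members than in columella-type barcodes for 4 of 6 tested and lower for SKS1: SKS6 had 165, 193, 182 and 192 CPM in members and 26.2, 88.4, 14.2 and 25 CPM in columella-type barcodes (2.62 ± 0.39), and SKS4 had 139, 129.8, 152 and 145 CPM in members and 36.9, 68.5, 26.5 and 14.3 CPM in columella-type barcodes (2.23 ± 0.37). EXPA14 was higher as well, with 6.8, 43.7, 14.2 and 5.96 CPM in columella-type barcodes (3.86 ± 0.37). The highest genes by size were AT1G52060, CYP702A2, AT1G14455, AT5G58784, AT2G38870 (a protease inhibitor), AGP18, CYP705A2 and AT1G07175. CYP705A2, a cytochrome P450 gene, had 113, 104, 151 and 107 CPM in members and 12.6, 2.21, 6.11 and 8.35 CPM in columella-type barcodes (4.26 ± 0.40), and AGP18, an arabinogalactan protein gene, had 84.9, 141, 148 and 71.3 CPM in members and 4.86, 13.8, 2.04 and 2.39 CPM in columella-type barcodes (4.30 ± 0.36). The lowest were AT2G28790, AT3G23360, AT4G38410 (a dehydrin), AT3G02245, LAX2, AT1G75580, AT3G60650 and MT1C. AT2G28790, a thaumatin-family gene, had 8.38, 2.37, 10.6 and 1.72 CPM in members and 329, 296, 171 and 462 CPM in columella-type barcodes (-5.63 ± 0.60).

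Single members differed widely among themselves. AT1G52070 ranged from 0 to 30428, 28919, 34576 and 52394 CPM in the members of the 4 libraries, with medians of 41.5, 57.0, 22.7 and 7480 CPM. It was at 0 in 26, 78, 53 and 11 members and at 3000 CPM or more in 10, 20, 21 and 73, with 5, 11, 5 and 2 members between 200 and 400 CPM. Members of 3 libraries thus spread over the whole range, with many at 0, while pSCR:GFP members lay mostly at the upper end. Members with 300 CPM or more of AT1G52070 were 19 of 61, 60 of 196, 37 of 109 and 87 of 110. Of these, 31.6%, 10.0%, 10.8% and 55.2% had a UMI of a cell death gene after thinning to 2000 UMIs, against 7.14%, 7.35%, 6.94% and 17.4% of members under 300 CPM. A UMI of the LZY genes was left in 0%, 3.33%, 0% and 0% of the members with more AT1G52070, against 4.76%, 19.9%, 22.2% and 17.4% of those with less. WER summed to 252, 155, 121 and 32.8 CPM in the members with more AT1G52070, against 934, 140, 189 and 262 CPM in those with less. The level of WER was thus lower beside high AT1G52070 in 3 libraries and not in pCORTEX:GFP. This split was made on the same barcodes after their values were seen and is given without a test.

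Members with 300 CPM or more of dividing-cell genes were 13, 52, 31 and 12, those with 300 CPM or more of cell death genes were 10, 7, 3 and 41, and 2, 1, 0 and 1 members had both, counts that were not compared with what the separate shares would give. The share with 300 CPM of cell death genes was 16.4%, 3.57%, 2.75% and 37.3% of members, against 22.5%, 28.1%, 24.7% and 32.6% of separating root cap.

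**Figure D4:**
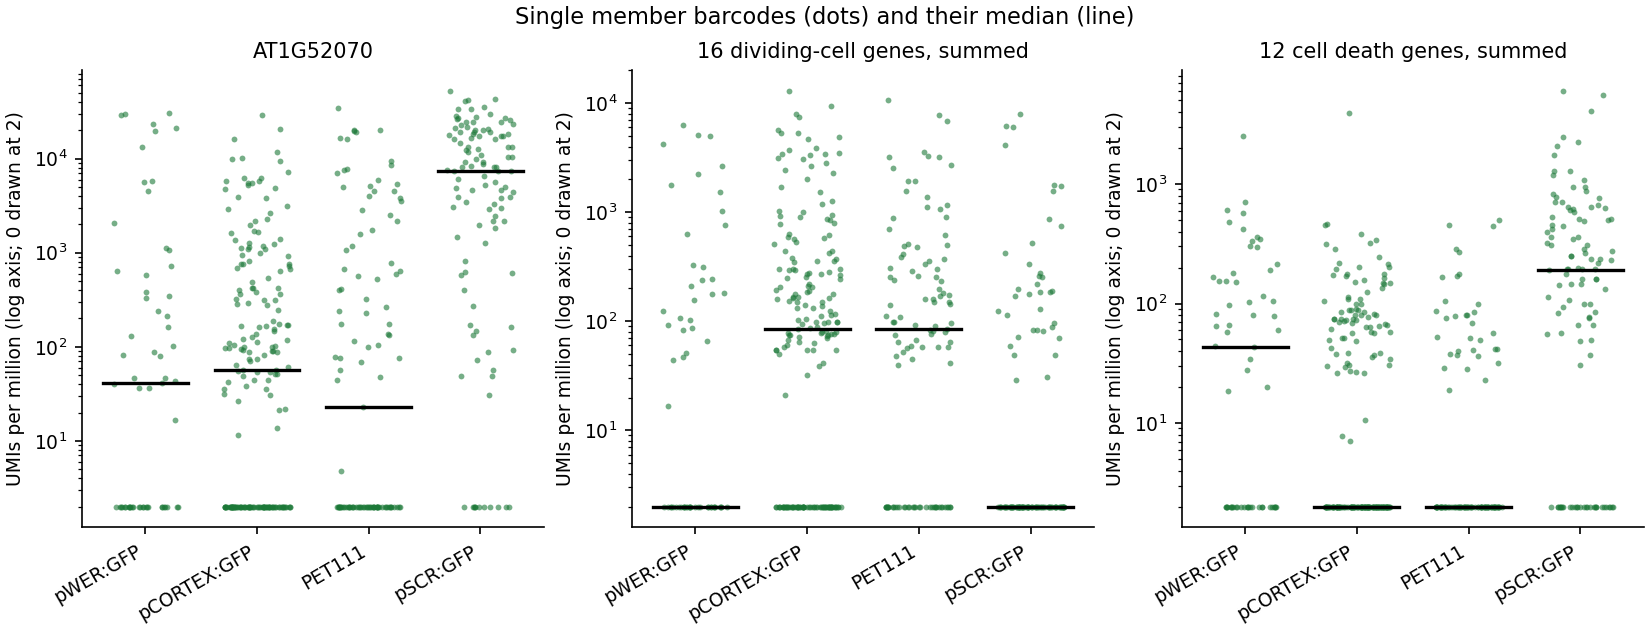
Single member barcodes in each library: AT1G52070, the summed dividing-cell genes and the summed cell death genes (CPM, log axis, with 0 drawn at 2), with the median as a line. The AT1G52070 median is 7480 CPM in pSCR:GFP and 22.7 to 57.0 CPM in the other 3 libraries.

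Some genes were high in the members of 1 library beyond what that library showed in its other barcodes. In pWER:GFP these were AT2G16005, MPL1 and KIN2, in pCORTEX:GFP AGP13, LCR68 and AGP21, in PET111 ARD3, AT5G39580 and CCOAMT, and in pSCR:GFP AT4G15160, AT5G54370 and MLP-300B. The excess of AT2G16005 came from 839 UMIs in 5 members, 99.8% of them in 3 barcodes, and 82.4% of the LCR68 UMIs were in 3 barcodes. AT4G15160, a lipid transfer protein-like gene, was spread over 91 of the 110 pSCR:GFP members, with 13.7% of its UMIs in 3 barcodes. With 1 library per line none of these differences has a replicate.

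The reporters gave 1 value per library. In the pWER:GFP library GFP stood at 293 CPM in members (exact Poisson 95% interval 260 to 330), 162 CPM in separating root cap, 15.6 CPM in columella-type barcodes, 2.48 CPM in hair-type barcodes and 42.8 CPM in all others. A GFP UMI was found in 38 of 61 members (62.3%, or 26.2% after thinning), against 24.0% of the others and 3.41% of hair-type barcodes, and 34 of the 38 members also had a WER UMI. The WER promoter reporter thus followed WER in being higher in members than in columella-type and hair-type barcodes of that library. In PET111, YFP had 310.1 CPM in members (288 to 334), 35.3 CPM in separating root cap, 2650 CPM in columella-type barcodes, 0.149 CPM in hair-type barcodes and 20.8 CPM in all others. It was found in 13 of 109 members (11.9%), none of which had a WER UMI although 70 members did, and it was at 15.2 CPM when mixed barcodes were left out. In pCORTEX:GFP, GFP had 3.32 CPM in members (1.81 to 5.57), 2.08 CPM in separating root cap and 9.59 CPM in all others; 13 of its 14 member UMIs were in 3 barcodes and 4 of 196 members had one. In pSCR:GFP, GFP was found in 0 of 110 members, which allows a share of up to 3.30% and a level of up to 3.17 CPM by the exact intervals, and had 3.38 CPM in all others.

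**Figure D5:**
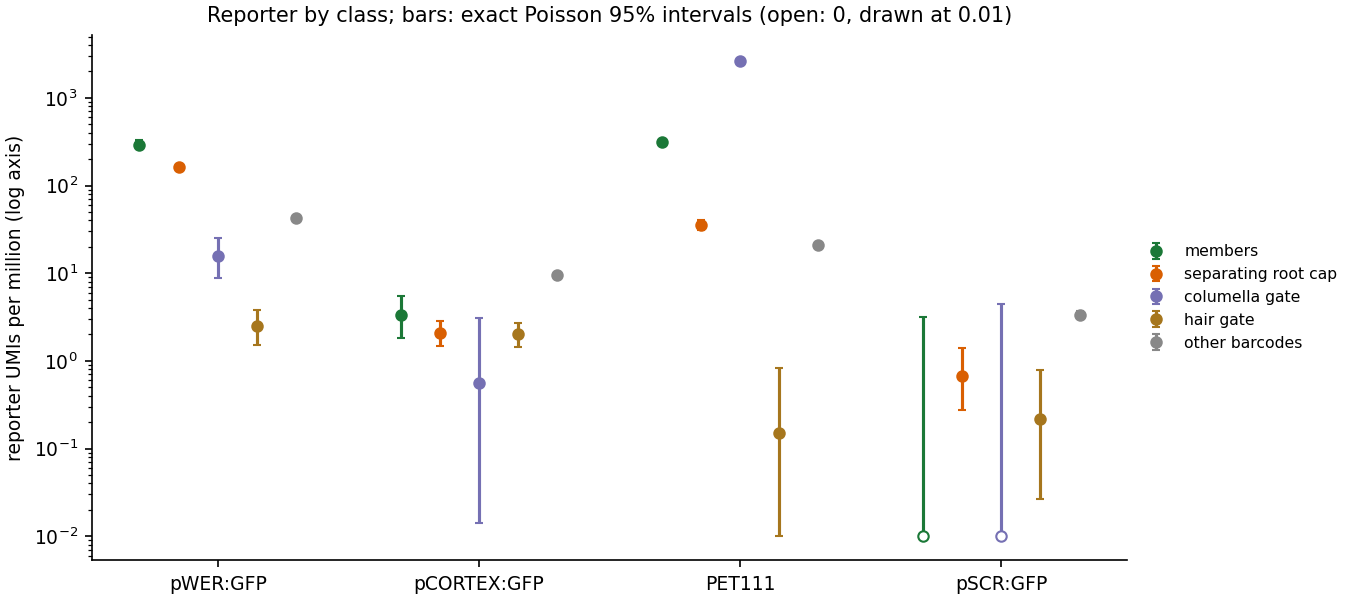
Reporter level (CPM, log axis) in members, separating root cap, columella-type, hair-type and all other kept barcodes of each library, with exact Poisson 95% bars for counting error; open symbols mark 0 UMIs. GFP driven by the WER promoter is at 293 CPM in members, and YFP of PET111 is at 2650 CPM in columella-type barcodes.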

How the data were processed

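The authors deposited 1 table of UMI counts per library, with genes in rows and cell barcodes in columns, and the submitters' processing notes name Cell Ranger 7.1.0 and Seurat. Genome build, alignment settings and any filter on barcodes are not given in the sources used here. Of 32834 gene rows, 32548 were matched by identifier to the TAIR10.1 RefSeq table for names. Counts were used as deposited, with totals of 208973259, 306361336, 163920194 and 160953229 UMIs in the order of libraries given above.

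The members were found by their rule in each library, and their UMIs were summed per library and class (954258, 4220757, 2270219 and 1164021 UMIs for members). The sums were compared with edgeR 4.0.16 (R 4.3.3), quasi-likelihood test, TMM factors, filterByExpr and the library as a block, since members and their comparison barcodes come from the same library; all p-values were adjusted by Benjamini-Hochberg over all tested genes. The 7 genes of the rule and the reporter entered no test, nor did the LZY genes against columella-type barcodes. Scripts used Python 3.11.15 with numpy 2.4.6, scipy 1.17.1 and pandas 2.3.3, and the fit and the thinning to 2000 UMIs were tested on simulated data. No doublet caller was run. In the alternative without mixed barcodes, all barcodes that met the LZY or hair limits were left out of members, separating root cap and others. Columella-type barcodes then lost those that met the hair limits. Other alternatives were DESeq2 1.42.0 and its size factors, library totals, no filter on low counts, thinned sums, other limits of the rule and each library left out. With 1 library per line, p-values measure the spread between these libraries, which may be technical.

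The members and the 22 gene lists were chosen with earlier results of these data known. Genes outside the lists were named by rule: among called genes with 1 direction in all 4 libraries and at least 50 CPM on the higher side, the 15 highest and 8 lowest against the others, the 8 highest and 8 lowest in each of the other comparisons, and 3 genes for each library. AT1G52070 and the count of CASP-rich members were chosen after their values were seen. Summed cells of a type cannot tell fewer transcripts in each cell from fewer cells with them. No sequences are shown.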

Additional observations from a re-analysis of the deposited data

Results flagged for a closer look

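Barcodes outside the kept set also carried the lateral root cap genes. Among barcodes with more than 10% of UMIs on organelle genes, the gene part of the rule was met by 47 barcodes of PET111, 44 of pCORTEX:GFP, 38 of pSCR:GFP and 18 of pWER:GFP. In pCORTEX:GFP it was also met by 8 barcodes with under 2000 UMIs. These barcodes entered no comparison. Of 23 genes named for members against the others, none had a library whose member-to-other ratio stood apart from the other 3 by Dixon's 95% limit. These genes had been chosen for 1 direction in all 4 libraries, so the check says little about agreement between libraries. AT5G51470 passed it with log2 ratios from 0.50 in pSCR:GFP to 4.04 in pWER:GFP.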

How the results depend on the processing

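The counts of genes called moved with the processing more in the comparison with separating root cap than in the other comparisons. Against the other barcodes, thinning each barcode to 2000 UMIs left 653 higher calls. Against separating root cap, library totals gave 903 higher calls, keeping every gene with a UMI gave 993 lower calls, thinning gave 216 higher and 278 lower, a marker minimum of 1000 CPM gave 312 higher and barcodes of at least 10000 UMIs gave 372 higher. Against columella-type barcodes, keeping every gene with a UMI gave 1487 higher calls and thinning gave 270 higher and 329 lower. Leaving out 1 library at a time gave 1067 to 1534 higher and 1744 to 2147 lower calls against the others, 0 to 579 higher and 0 to 898 lower against separating root cap, and 599 to 904 higher and 730 to 1017 lower against columella-type barcodes. The lowest counts against separating root cap came without pWER:GFP. The cause was not tested, beyond the smaller number of libraries or UMIs that these settings keep.

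The fit has the library as a block, because members and their comparison barcodes come from the same library. With no replicate block, 1066 genes were called lower against the others, 450 higher and 611 lower against columella-type barcodes, and 0 in either direction against separating root cap, where 2827 genes had an unadjusted p under 0.05 by edgeR. No gene was called in opposite directions by the main settings and an alternative. For genes named against the others, 1874 of 2093 values over the alternatives kept direction and call, 214 lost the call and 5 turned. AT1G52070, not called, went to -0.82 when thinned, and leaving out 1 library gave -0.30 (without pSCR:GFP) to 0.56. Without mixed barcodes EXPA7 went to 0.086, EXPA18 to 0.76 and PRP3 to 0.54, a setting that removes hair-type barcodes from the others. SMB stayed between 1.75 and 4.01 and was called under all 19 alternatives. Against separating root cap 634 of 853 values and against columella-type barcodes 1097 of 1159 values kept direction and call, and the rest lost the call.

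The member share of kept barcodes moved with the limits of the rule. In pWER:GFP it was 0.693% with a 5% organelle limit, 0.267% with markers at 1000 CPM and 0.708% with separation genes under 50 CPM. In pCORTEX:GFP it was 4.76% with the rule applied after thinning, 1.34% with markers at 1000 CPM, 1.47% with separation genes under 50 CPM and 3.28% among barcodes of 10000 UMIs. In PET111 these 4 settings gave 3.89%, 1.45%, 2.05% and 3.76%. In pSCR:GFP the share was 2.12% after thinning, 1.25% with a 5% organelle limit, 0.615% with markers at 1000 CPM, 1.24% with at least 5 marker UMIs and 1.13% with separation genes under 50 CPM. The reporter in pWER:GFP members was at 197 CPM when thinned and 532 CPM with markers at 1000 CPM. In pCORTEX:GFP members it was at 0 CPM when thinned, 1.28 CPM with markers at 1000 CPM and 5.63 CPM with separation genes under 50 CPM. In PET111 members it was at 482 CPM when thinned, 263 CPM with a 5% organelle limit, 236 CPM with markers at 1000 CPM, 424 CPM with separation genes under 50 CPM and 15.2 CPM without mixed barcodes. The settings of 10000 UMIs, of all classes without CASP-rich barcodes and of others without separating barcodes were added after the data were seen.

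With few marker UMIs per member, a barcode near a limit can fall on either side by counting error, and genes with few UMIs in the member sums cannot be told from 0 at this depth. Free RNA and mixed droplets can add UMIs, and their part in the results was not tested beyond the settings above. Each line has 1 library, so no difference between libraries has a replicate.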
